A study of Mus musculus with 6 samples.

Results

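The genes of the Notch pathway named here are the receptors Notch1, Notch2 and Notch3, the ligands Jag1, Jag2 and Dll1, the target genes Hes1, Hey1 and Heyl, and the Notch inhibitor Numb. Their probes were those that the array annotation assigns to one of these symbols. Of 10 symbols, 9 had probes and Jag2 had none. The 9 genes held 306 of 474380 probes, and each had at least 1 measured window among 16501 genes that did. None of the 306 probes was also assigned to another gene.

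Occupancy was measured by chromatin immunoprecipitation on promoter arrays in C2C12, a line of mouse muscle precursor cells that form multinucleate myotubes when serum is lowered. The TEAD4 samples came from cells infected with a retrovirus for TEAD4 carrying a Flag-HA tag, and the control sample from cells infected with the empty vector. Both kinds of cells were kept in puromycin as infected populations, grown in 10% fetal calf serum, differentiated for 5 days in 2% horse serum and fixed for 10 min in 0.4% formaldehyde, and both were precipitated with an anti-Flag antibody. The control therefore measures what the antibody brings down without tagged TEAD4, and the TEAD4 is the vector's tagged protein, not the cells' own. There were 2 TEAD4 samples and 1 control sample, each on 2 array designs (6 arrays), with precipitated (IP) DNA in Cy5 and input DNA in Cy3. The labels call the TEAD4 samples duplicates and do not say whether they were separate cultures, so p-values here measure only the spread between them, which may be technical. The arrays hold no expression values, so the myotube label was not checked against markers.

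Notch receptors are cut after a ligand on a neighbouring cell binds them, and the freed intracellular part joins the DNA-binding protein RBPJ to switch on target genes such as those of the Hes and Hey families. In muscle the pathway is known for keeping progenitor cells undifferentiated and for restraining myogenic factors. TEAD4 is a DNA-binding factor of the TEAD family, which binds the MCAT element and works with the co-activators YAP and TAZ. The question addressed is which promoters tagged TEAD4 occupied in differentiated cells.

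The values are log2 of IP over input signal, centred on each array's median probe. A window takes a probe and the neighbours up to 500 bp away on either side, holds at least 3 probes and has their mean, and its distance is that of its central probe from the gene's annotated start. The control differed from the TEAD4 samples over the whole array. The median IP signal was 3.63 to 5.41 times local background on the TEAD4 arrays, and 1.84 and 2.04 times on the control arrays. The median input signal went the other way, at 3.08 to 3.67 times on the TEAD4 arrays and 5.56 and 7.57 times on the control arrays. Windows had an SD of 0.38 (TEAD4 sample 1) and 0.40 (TEAD4 sample 2), against 1.04 for the control. Of all windows, 1.08% and 2.22% were at least 2-fold over input in TEAD4 samples 1 and 2, against 26.4% in the control, whose median window lay at 0.26.

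The promoters of the 3 receptors are shown because their start windows had the highest TEAD4 means of the 9 genes and because they differ in the TEAD letters. Those means were 0.60 for Notch1, 0.64 for Notch2 and 0.85 for Notch3, against 1.99, 3.44 and 0.81 in the control. The start windows of Hey1 (0.39), Dll1 (0.25), Hes1 (0.16) and Jag1 (0.11) had TEAD4 means above input too. The top TEAD4 windows of all 3 were centred after the start, outside the bases printed. The sequences are RefSeq's (GRCm38.p6), the 250 bases before the annotated start, from chr2:26503823-26504072 (minus strand) for Notch1, chr3:98013288-98013537 (plus strand) for Notch2 and chr17:32166891-32167140 (minus strand) for Notch3. Capitals mark the core of the MCAT element, GGAATG or its reverse complement CATTCC.
Notch1: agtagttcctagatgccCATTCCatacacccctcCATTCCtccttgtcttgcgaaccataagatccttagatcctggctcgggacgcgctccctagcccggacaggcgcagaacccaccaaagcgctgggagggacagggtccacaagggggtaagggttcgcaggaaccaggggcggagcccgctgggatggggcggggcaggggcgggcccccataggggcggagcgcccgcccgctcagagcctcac
Notch2: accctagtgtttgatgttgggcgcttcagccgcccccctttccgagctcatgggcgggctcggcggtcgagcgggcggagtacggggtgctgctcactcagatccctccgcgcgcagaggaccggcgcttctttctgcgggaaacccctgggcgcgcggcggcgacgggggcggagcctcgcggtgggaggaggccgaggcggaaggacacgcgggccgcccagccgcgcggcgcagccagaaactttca
Notch3: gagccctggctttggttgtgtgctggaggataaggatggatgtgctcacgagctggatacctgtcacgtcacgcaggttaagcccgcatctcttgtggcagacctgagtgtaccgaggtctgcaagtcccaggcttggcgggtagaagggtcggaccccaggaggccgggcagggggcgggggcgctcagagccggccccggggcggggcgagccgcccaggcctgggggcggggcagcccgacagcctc
The Notch1 promoter held 2 matches, which begin at 233 and 216 bases before the start, and the other two held none. Of all 32841 RefSeq promoters of this length, 12.6% held a match. The letters TGGGAA (or TTCCCA), the core bound by RBPJ, were in none of the 3, against 21.6% of all promoters. A TEAD and an RBPJ match can overlap by 4 bases. GC content was 66% for Notch1, 72% for Notch2 and 68.8% for Notch3, against a median of 52.4% over all promoters, and they held 16, 34 and 17 CG pairs, against a median of 6. Promoters were matched for 6 of the 9 genes. Those of Jag1, Dll1 and Numb held no match to either set of letters, so that Notch1 alone held a TEAD match.

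By a rule of size, a window reaching 2-fold over input in both TEAD4 samples, 2 of 9 genes passed, Hes1 and Notch2 (22.2%). Over all genes 5.2% passed. With TEAD4 sample 2 alone (sample 1 left out), Notch1 and Notch3 passed as well, 4 of 9, against 15.6% of all genes. With neighbours within 1000 bp in a window none did, against 2.22% of all genes. By limma's fit with Benjamini-Hochberg adjustment over all genes, 5 of 9 rose over input (Hes1, Heyl, Notch1, Notch2 and Notch3) against 24% of all genes, and 1 of 9 fell (Numb) against 11.8% of all genes. Dll1, Hey1 and Jag1 did not pass. The genes held 20 to 42 windows each, against a median of 25 over all genes. The median over the 9 genes of the highest window's TEAD4 mean was 0.76, against 0.40 over all genes.

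**Figure D1:**
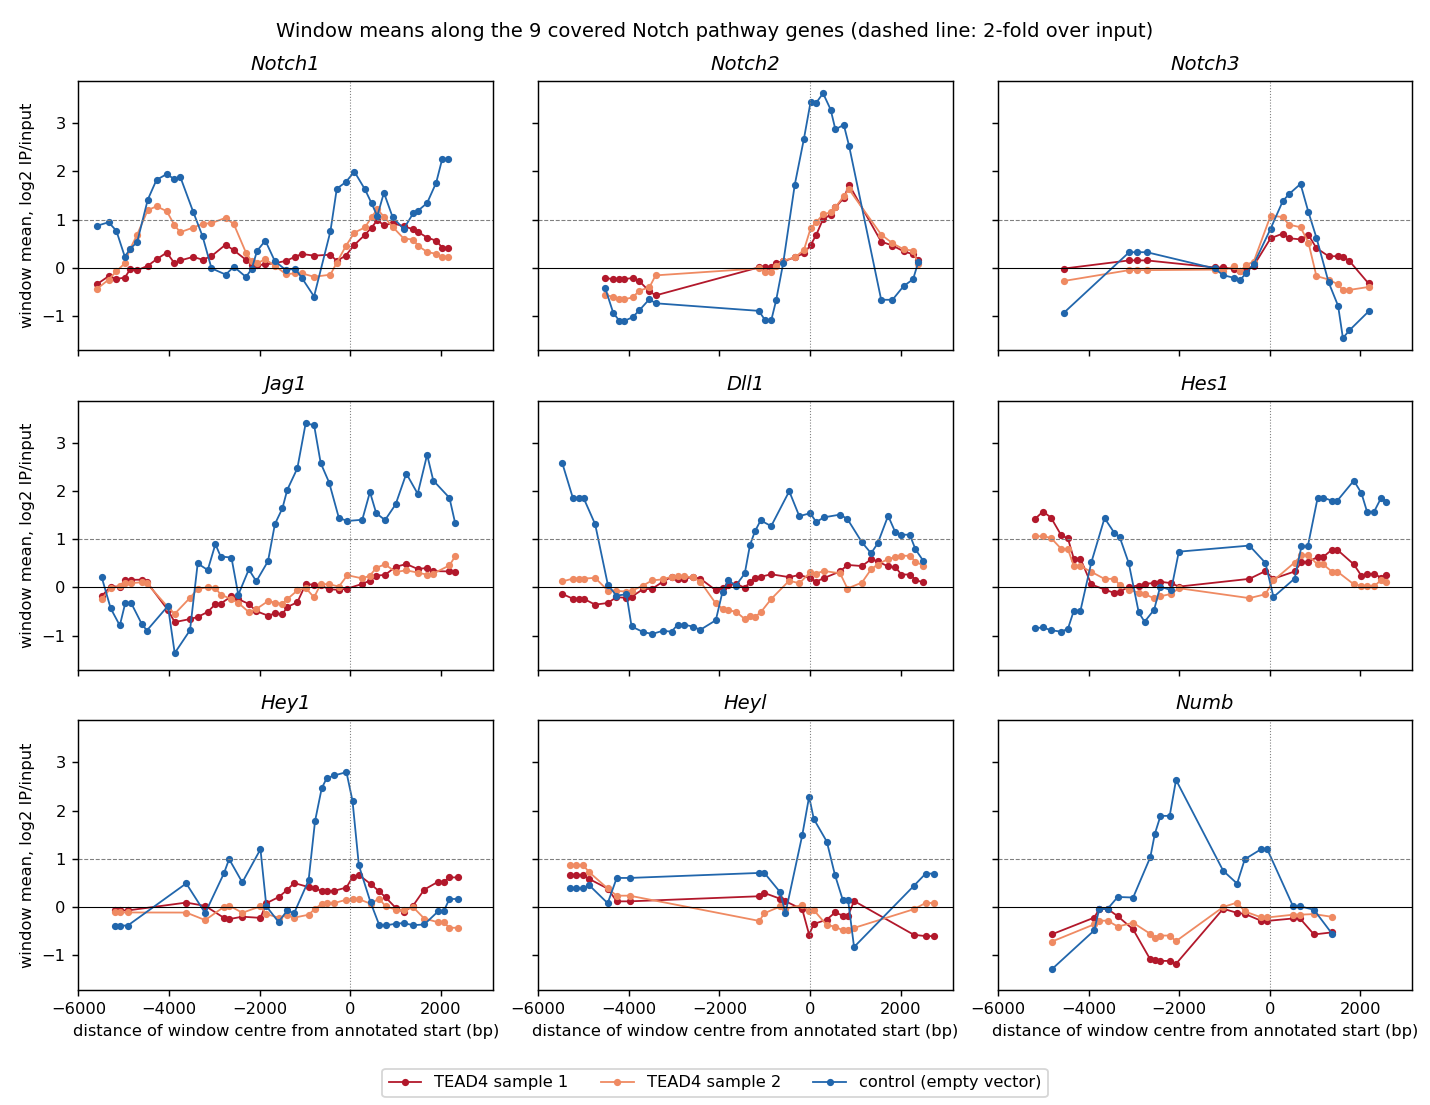
Window means of log2 IP/input (vertical axis) against the distance of the window centre from the annotated start in bp (horizontal axis) for the 9 genes, with TEAD4 samples 1 and 2 in red and orange and the control in blue; the dashed line marks 2-fold over input. TEAD4 lay above that line in both samples upstream of Hes1 and after the start of Notch2, and the control lay above it in parts of every gene.

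Among the receptors, Notch2 had the highest TEAD4 window of the 9 genes. Its top window, 863 bp after the start (chromosome 3, 98099376 to 98099835 as the files give it, build not given in the sources used here; 4 probes annotated as inside the gene), had log2 IP/input of 1.72 and 1.62 in TEAD4 samples 1 and 2, against 2.53 in the control. Both TEAD4 samples were over 3-fold above input and close to each other, and the control was higher than both. The mean TEAD4 value was 1.67 ± 0.07 (SD, n = 2, standard error of the fit 0.16), and 1.48% of all genes had a top window as high. For the gene, over all its windows, the adjusted p from limma was 0.000119 over input. In 5 windows of Notch2 both TEAD4 samples were at least 2-fold over input.

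The signal at Notch2 was centred at different places in the TEAD4 and control samples. TEAD4 was 0.47 and 0.81 in the window 13 bp after the start and grew along the gene to its highest value at 863 bp. The control was 3.44 in the start window and highest, at 3.62, 289 bp after the start. At the single probe 13 bp after the start, the processed IP signal was 2156 and 2088 in the TEAD4 samples, against 56987 in the control, while input was 1904 and 1491, against 1637. At the probe 746 bp after the start, the IP signal was 28218 and 12496 in the TEAD4 samples, against 16199 in the control, over inputs of 4206 and 3747, against 3798. The control's IP signal was thus far above both TEAD4 signals at the first probe and lay between them at the second, while the inputs differed far less. Beyond a gap in the probes, the window at 1572 bp had 0.54 and 0.69 in TEAD4, against -0.66 in the control, so that Notch2 also passed the rule of 2-fold above the control.

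Notch1 narrowly missed the size rule. Its top window, 597 bp after the start (chromosome 2, 26324683 to 26325343; 5 probes), had 0.99 and 1.22 in the TEAD4 samples, against 1.07 in the control. The control lay between the TEAD4 samples there. The mean was 1.10 ± 0.16 (SD, n = 2), and the gene's adjusted p from limma was 0.00414. A second stretch differed between the duplicates: at 4277 bp before the start TEAD4 was 0.18 in sample 1 and 1.27 in sample 2, against 1.82 in the control. At 2750 bp before the start, TEAD4 was 0.48 and 1.04, against -0.14 in the control. Of the TEAD4 samples, sample 2 alone passed 2-fold over input in these windows.

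Notch3 showed TEAD4 signal at its start. The start window, centred 20 bp after the start, had 0.61 and 1.08 in the TEAD4 samples, against 0.81 in the control. The top window, 287 bp after the start (chromosome 17, 31894856 to 31895560; 4 probes), had 0.71 and 1.05, against 1.38 in the control. Sample 2 passed 2-fold over input and sample 1 did not. The mean was 0.88 ± 0.24 (SD, n = 2). The gene's adjusted p from limma was 0.0072, and 0.0506 with neighbours within 1000 bp. Upstream of Notch3, between 3102 and 353 bp before the start, TEAD4 windows lay between -0.07 and 0.15.

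Hes1, a transcriptional repressor and classical Notch target, had the highest TEAD4 window among the target genes. It lay 5004 bp before the start (chromosome 16, 29979893 to 29980526; 4 probes annotated as promoter), at the upstream end of the tiled stretch. TEAD4 was 1.57 and 1.06 there, against -0.83 in the control. Both TEAD4 samples were over 2-fold above input, and the control was under input. The mean was 1.32 ± 0.36 (SD, n = 2, standard error of the fit 0.16). The gene, over all its windows, had an adjusted p of 0.000473 over input and of 4.4e-05 against the control, both from limma. With neighbours within 250 bp and at least 2 probes, the gene's limma call against the control turned to lower (adjusted p 0.000507). The call was lost with normexp (0.079) and with ratios scaled to a common spread (0.0665). TEAD4 minus control in the top window was 2.15, and 4.13% of all genes had a top TEAD4 window as high.

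At each probe from 5529 to 4324 bp before the start, the processed IP signal was above input in both TEAD4 samples and below it in the control. These signals are not centred. The median probe of the control arrays was itself below input (log10 IP/input -0.191 and -0.166), against -0.00533 to 0.00276 on the TEAD4 arrays. At the probe 4829 bp before the start, the processed IP signal was 2844 and 2858 in the TEAD4 samples, against 174 in the control, with inputs of 593 and 643, against 320. At the probe 5004 bp before it, IP was 8007 and 3676, against 759, with inputs of 2985 and 2063, against 2584. The IP signal was the part that differed most between the samples. The signal declined towards the gene, to 0.59 and 0.44, against -0.48 in the control, at 4178 bp before the start. In the Hes1 start window TEAD4 was 0.18 and 0.14, against -0.20 in the control, both well under the upstream values. Within the gene the order of the samples was the opposite: at 1857 bp after the start TEAD4 was 0.48 and 0.06, against 2.21 in the control. Among the 34 windows of Hes1, both TEAD4 samples were 2-fold under the control in 11 and 2-fold over it in 5.

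**Figure D2:**
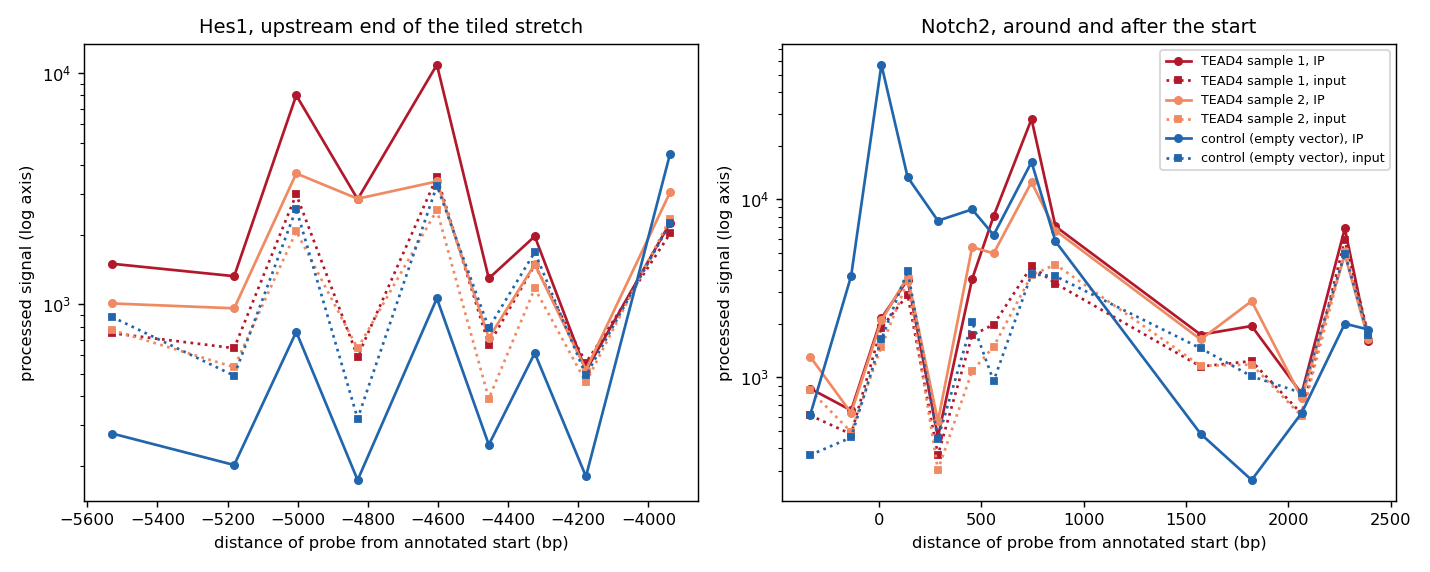
Processed signal of each probe (vertical log axis, arbitrary units of the scanner software) against its distance from the annotated start in bp (horizontal axis) in Hes1 (left) and Notch2 (right), with solid lines for IP and dotted lines for input in TEAD4 samples 1 and 2 (red, orange) and the control (blue). From 5529 to 4324 bp before the Hes1 start the TEAD4 IP signals lie above their inputs and the control IP below its input, and at 3938 bp the control IP is above its input too. Signals are not centred, and the median probe of the control arrays also has IP below input. At Notch2 the control IP peaks at 13 bp (56987) and the TEAD4 IP signals at 746 bp.

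The other target genes had weaker TEAD4 signal. Heyl, a hairy-related repressor, had its top window at the upstream end too, 5308 bp before the start, with 0.66 and 0.87 in TEAD4, against 0.39 in the control. The mean was 0.76 ± 0.14 (SD, n = 2). The gene's adjusted p from limma was 0.0145, and 0.0979 with neighbours within 250 bp. At the Heyl start TEAD4 was -0.57 and -0.08, against 2.29 in the control. The start of Heyl thus had the order of samples opposite to that upstream of Hes1. Hey1, of the same family, had 0.67 and 0.16 in TEAD4 in its top window 190 bp after the start, against 0.86 in the control. For Hey1 as a gene, the adjusted p from limma was 0.698. The control reached 2.80 at 84 bp before the Hey1 start, where TEAD4 was 0.40 and 0.15.

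Neither ligand passed the test over input. Jag1, which signals to Notch receptors on neighbouring cells, had 0.32 and 0.64 in TEAD4 in its top window 2315 bp after the start, against 1.34 in the control. Its lowest p belonged to a window 3875 bp before the start, with -0.72 and -0.55 in TEAD4, against -1.36 in the control (adjusted p from limma for the gene 0.125). At 984 bp before the start the control was 3.40, while TEAD4 was 0.07 and -0.01. The control was at least 2-fold over input in 21 of the 40 windows of Jag1, and TEAD4 in none.

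Dll1, the delta-type ligand, had 0.42 and 0.63 in TEAD4 in its top window 1884 bp after the start, against 1.14 in the control. The gene's adjusted p from limma was 0.106. Its start window had 0.19 and 0.32, against 1.54. Dll1 passed the rule of 2-fold above the control, with 4 windows, although TEAD4 was near input there: at 3055 bp before the start TEAD4 was 0.22 in both samples, against -0.92 in the control. That difference therefore came with a low control value and not with TEAD4 over input.

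Numb, which counters Notch signalling during asymmetric division, was the gene with the least TEAD4 signal. No window had a TEAD4 mean above 0, and the highest, 720 bp before the start, had -0.12 and 0.09, against 0.49 in the control. TEAD4 was under input 2068 bp before the start (chromosome 12, 84734130 to 84734652; 4 probes), at -1.18 and -0.71, against 2.64 in the control. That window had the gene's lowest p against input, and the gene's adjusted p from limma for TEAD4 under input was 0.00485. It also had the widest gap to the control among the 9 genes, with a TEAD4 minus control of -3.58. With normexp background correction the adjusted p was 0.472, so this call rests on the processed signals.

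**Figure D3:**
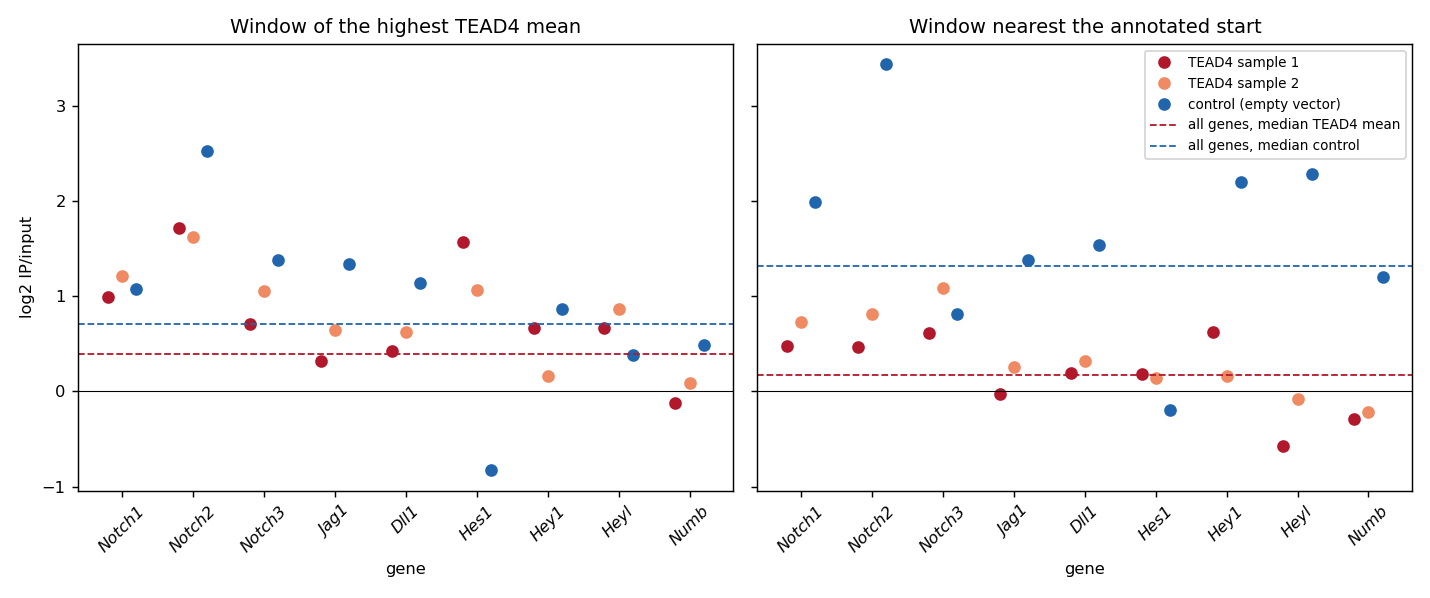
Log2 IP/input (vertical axis) for the 9 genes (horizontal axis) in the window of the highest TEAD4 mean (left) and the window nearest the annotated start (right), with TEAD4 samples 1 and 2 in red and orange and the control in blue; dashed lines are medians over all genes. In the left panel Hes1 has both TEAD4 samples far above the control (1.57 and 1.06 against -0.83), and in the right panel the control of Notch2 is the highest point (3.44).

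At the annotated start the 9 genes resembled the other promoters. The median start window was 0.25 for the TEAD4 mean and 1.54 for the control, against 0.17 and 1.32 over 15834 genes with such a window. The control was above both TEAD4 samples in 7 of 9 genes, against 78.9% of all genes. It lay between them at Notch3 and below both at Hes1. In the top windows the control was above both TEAD4 samples in 6 of 9 genes, against 51.6% of all genes, and below both at Hes1 and Heyl.

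By distance, the genes had more TEAD4 signal downstream than upstream. In the windows from 250 to 1000 bp after the start the median of the 9 genes was 0.47 and 0.48 in TEAD4, against 1.36 in the control. Over all genes the same stretch had 0.17 and 0.13 in TEAD4, against 0.81 in the control. From 1000 to 2500 bp after the start, the 9 genes had 0.40 and 0.29 in TEAD4, against 0.94 in the control, and all genes -0.02 and -0.01, against 0.10. Upstream, from 5500 to 2500 bp before the start, the medians of the 9 genes were -0.03 and 0.03 in TEAD4, against -0.01 in the control. Over all genes they were -0.11 and -0.08, against -0.04. All genes thus also had more TEAD4 signal from 250 to 1000 bp after the start than in this upstream stretch. The upstream median of the 9 genes hides the Hes1 and Heyl windows at that end. These medians are descriptions, since overlapping windows share probes.

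**Figure D4:**
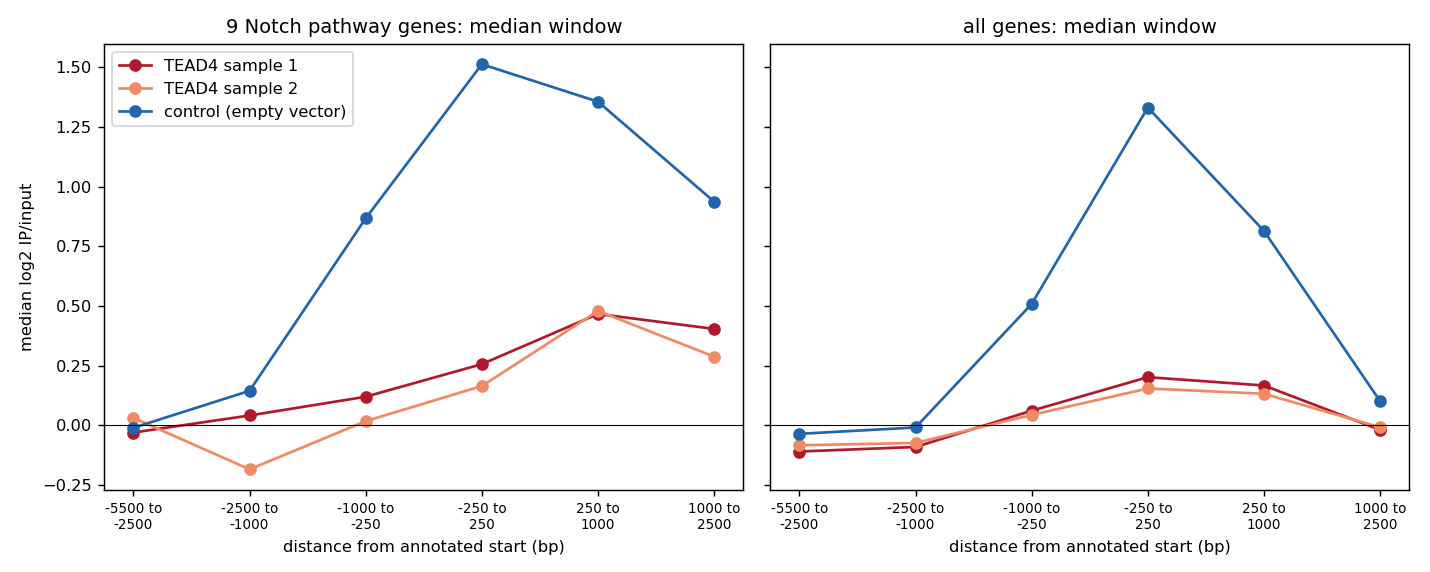
Median window log2 IP/input (vertical axis) by distance from the annotated start in bp (horizontal axis, 6 bins) for the 9 genes (left) and all genes (right), with TEAD4 samples 1 and 2 in red and orange and the control in blue. After the start the TEAD4 medians of the 9 genes (0.47 and 0.48 from 250 to 1000 bp) lie above those of all genes (0.17 and 0.13), as does the control.

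Against the control, the counts lay near those over all genes. A window reaching 2-fold over the control in both TEAD4 samples was found in 3 of 9 genes (Dll1, Hes1 and Notch2), against 29.9% of all genes, and in 5 of 9 with TEAD4 sample 1 alone, against 42.4%. A window at least 2-fold below it was found in 8 of 9, all but Notch3, against 81.9% of all genes, and the control was 2-fold over input in 9 of 9, against 85.6%. By limma with Benjamini-Hochberg adjustment, 2 of 9 were higher in TEAD4 than in the control (Hes1 and Notch3) against 12.4% of all genes, and 7 of 9 lower against 81%. With normexp none of the 9 was called in either direction, and 326 of all 16501 genes were higher and 804 lower. With ratios scaled to a common spread none of the 9 was called either, and 128 of all genes were higher and 34 lower. With neighbours within 250 bp all 9 were called lower, Hes1 and Notch3 included, as were 14029 of 16585 genes. The direction of the Notch3 call (adjusted p from limma for the gene 0.0112) came from a window 1616 bp after the start. TEAD4 was 0.23 and -0.47 there, against -1.46 in the control, so that TEAD4 was not over input in both samples. Of the 9 genes, Hes1 alone had a top window that was 2-fold over input and over the control in both TEAD4 samples. The part of the control's weaker IP signal and stronger input signal over background in these differences was not tested. Extended dynamic range was used in scanning the control arrays alone, so its effect and that of the group cannot be told apart.

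The control comparison at Notch2 depended on the scale. TEAD4 minus control in its top window was -0.86, but it was 0.71 with normexp, 0.84 with loess, 1.26 with ratios scaled to a common spread and 1.48 with quantile normalization. At Hes1 the same difference was 2.15 and lay between 1.83 and 2.87 over the alternatives.

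The duplicates followed each other to different degrees along the genes. Across the probes of Notch2 the correlation of the TEAD4 samples was 0.71 (31 probes), across those of Hes1 0.62 (36 probes), across those of Dll1 0.14 (42 probes) and across those of Hey1 -0.25 (33 probes). Neighbouring probes share fragments and arrays, so these are descriptions. The mean of both TEAD4 samples correlated with the control at 0.54 across Notch2 and 0.52 across Notch3, and at -0.22 across Hes1 and -0.28 across Numb. The other 5 genes lay between -0.07 and 0.20. Of the 303 kept probes of the 9 genes, none was saturated, and the IP signal of each was well above background in both TEAD4 samples. In the control it was not well above background at 14 of these probes, in 7 of the 9 genes (4 each in Jag1 and Numb), and none of them lay in Hes1 or Notch2.

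Of 55 other genes of the pathway, 51 had windows. By the size rule over input 1 of 51 passed (1.96%), Adam17, a protease that cuts the receptor outside the membrane. The count was 12 with TEAD4 sample 2 alone, against 15.6% of all genes, and 3 with sample 1 alone, against 8.07%. With loess the 1 gene that passed was Rbpj, and Adam17 did not. Its window 516 bp before the start had 1.07 and 1.05 in TEAD4, against 0.49 in the control. By limma, 15 of 51 rose over input (29.4%, against 24% of all genes) and 4 fell (7.84%, against 11.8%). Against the control 1 was higher (1.96%, against 12.4%) and 50 were lower (98%, against 81%). Their median top window was 0.51.

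The highest top windows of the TEAD4 mean among these genes were much higher in sample 2 than in sample 1. Rbpj, the DNA-binding partner of cut Notch, had 0.89 and 3.62 in TEAD4 at 2444 bp before the start, against 1.18 in the control. For Rbpj as a gene, the adjusted p from limma was 0.00451. Adam17 had 0.58 and 2.54 at 4413 bp before the start, against 2.58 in the control. Mib1, a ubiquitin ligase for Notch ligands, had 0.74 and 2.11 at 63910 bp after the start, against -0.29 in the control. That window is far from the annotated start, so it says nothing about the promoter there. Mib1 held 66 windows, against a median of 25 over all genes. In the top windows of Rbpj, Adam17 and Mib1, sample 1 stayed under 2-fold over input. The lowest were Mfng, a glycosyltransferase that modifies Notch, with 0.18 and -0.02, against 1.22, and Mib2, also a ubiquitin ligase, with 0.03 and 0.11, against 1.27.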

How the data were processed

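Arrays of 2 Agilent promoter designs were scanned for 2 TEAD4 samples and 1 control sample. Per the file headers, the deposited processed intensity values come from Agilent's Feature Extraction (version 9.5.3.1), which used extended dynamic range on the control arrays only. The authors also deposited a series matrix, whose values are log10 ratios of IP over input, not centred (medians from -0.182 to 0.00124), which equal the scanner files' log10 ratios. The coordinates' genome build was not given in the sources used here. The log2 ratio of processed IP to processed input intensity was taken here, and the array median subtracted. Left out were control spots, probes with no position and probes marked non-uniform on any array (236180 and 235690 probes kept). Windows held at least 3 probes within 500 bp on each side of a probe (428020 windows). Genes were those the annotation names for a probe, updated through RefSeq (GRCm38.p6, names only).

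Each design was fitted with limma 3.58.1 (R 4.3.3), TEAD4 over input (against 0) and TEAD4 minus control, the windows of a gene being joined by Simes' method and genes adjusted by Benjamini-Hochberg over the whole table (two-sided, 0.05). A gene's direction is that of its window of lowest p. The 1 residual degree of freedom comes from the 2 TEAD4 samples, with 13.4 and 13.9 prior degrees of freedom, and the control is assumed to vary like them. On simulated data, where all arrays varied alike, only the fit of TEAD4 over input was tested. The assumption about the control was not. The genes and lists were chosen with earlier results of these data known. Named were the 9 covered genes and, of 55 other pathway genes, those 2-fold over input in both TEAD4 samples, the 3 highest and the 2 lowest top windows. The alternatives were normexp, loess, scaling to a common spread (median absolute deviation), quantile normalization, filters on dim probes, other windows and folds, probes marked non-uniform kept, the series matrix values and leaving out each TEAD4 sample. Windows with neighbours within 250 bp needed at least 2 probes, so their width and probe minimum changed together. One alternative, windows centred on their median, was chosen after seeing the data.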

Additional observations from a re-analysis of the deposited data

How the results depend on the processing

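Leaving out a TEAD4 sample leaves limma no residual degrees of freedom, so those settings give sizes only. No paired analysis was possible because the TEAD4 and control samples share fewer than 2 replicate numbers. Genes 2-fold over input in both TEAD4 samples numbered 2 of 9 (5.2% of all genes) and became 4 with ratios scaled to a common median absolute deviation (15.3% of all genes), 6 with quantile normalization (27.9%), 0 with neighbours within 1000 bp (2.22%), 4 with neighbours within 250 bp (9.01%), 5 at 1.5-fold (20.2%), 1 at 3-fold (Notch2; 0.782%), and from 2 to 4 without a TEAD4 replicate (8.07% to 15.6%). Genes 2-fold above the control numbered 3 (29.9% of all genes), and 5 with quantile normalization (27.3%), 8 with neighbours within 250 bp (55.9%), 6 at 1.5-fold (63.4%), 1 at 3-fold (Hes1; 4.76%), 5 with windows centred on their median (51.7%), an alternative chosen after seeing the data, and from 4 to 5 without a TEAD4 replicate (42.4% to 46%). With normexp they were Hes1 and Notch3 (7.97% of all genes), and with loess Hes1, Jag1 and Notch2 (28.5%). Genes 2-fold below the control numbered 8 (81.9%), and 1 with normexp (10.8%), 3 with the common spread (31.8%) and 3 with quantile normalization (30.8%).

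The 5 limma calls over input stayed between 4 and 6. Numb, the 1 call under input, became 0 calls with normexp and 2 with loess, Jag1 being added. Against the control, the 2 higher calls became 0 with normexp, 0 with the common spread, 1 with quantile normalization and 0 with neighbours within 250 bp. The 7 lower calls became 0, 0 and 1 under the first 3 of these and 9 under the fourth, where Hes1 and Notch3 turned to lower. Other pathway genes over input numbered 1 of 51 (Adam17, but Rbpj with loess), against 5.2% of all genes (5.39% with loess). They numbered 2 with normexp (3.36% of all genes), 10 with the common spread (15.3%) and 15 with quantile normalization (27.9%). With neighbours within 1000 bp there were 0 (2.22%), and within 250 bp 5 (9.01%). There were 12 at 1.5-fold (20.2%), 0 at 3-fold (0.782%) and from 3 to 12 without a TEAD4 replicate (8.07% to 15.6%).

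The median top window of 0.76 became 1.11 with the common spread, 1.49 with quantile normalization and 0.46 with neighbours within 1000 bp. TEAD4 minus control in the top window turned positive for Dll1 (0.25 with normexp, 0.28 with the common spread, 0.53 with quantile normalization), for Jag1 (0.072 with the common spread, 0.44 with quantile normalization) and for Notch2 (0.71, 0.84, 1.26 and 1.48 with normexp, loess, the common spread and quantile normalization). In top windows whose own difference from the control had an unadjusted p above 0.05 the sign changed too: Notch3, at -0.50, was 1.08, 0.20, 0.71 and 0.86 under those 4 settings and 0.055 with neighbours within 250 bp, Hey1, at -0.45, was 0.20 with the common spread and 0.49 with quantile normalization, and Numb, at -0.50, was 0.39 with normexp. Heyl, at 0.38, was -0.33 with neighbours within 250 bp, and Notch1, at 0.03, was between -0.65 and 1.48 over the alternatives. Over all genes, limma's split of 3954 higher and 1944 lower over input became 2044 and 48 with normexp and 6647 and 1030 with quantile normalization. Against the control, 2039 higher and 13372 lower became 326 and 804 with normexp, 128 and 34 with the common spread, 1075 and 518 with quantile normalization and 4318 and 11252 with windows centred on their median. The cause of these changes was not tested. The other 75 comparisons of a count or median with an alternative stayed within 1.5 times the count or the duplicates' SD, which does not say that the same genes were called. The control's median IP signal was 1.84 and 2.04 times local background on its 2 arrays. With 1 control sample, the precision of a difference from it was not measured.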
